A study of Homo sapiens with 20 samples.

Results

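The 3 sestrin genes SESN1, SESN2 and SESN3, together with DDIT4, were followed at the level of whole genes, single transcripts and transcription start sites in RNA-seq libraries of NGP cells. The members were taken by gene name from the GENCODE annotation and number 4 of the 57536 genes with a transcript in the files, and all 4 were among the 27697 genes that were tested. NGP is a neuroblastoma cell line with amplified MYCN. The series holds 20 samples of this 1 line, of which 10 were treated with nutlin-3 (8 µM, a racemic mixture) and 10 with ethanol, its vehicle. The study's methods call the samples biological replicates, and the duration of treatment is not given in the sources used here. Both groups are the same unmodified cell line, so the treatment is the only labelled difference between them.

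mTORC1 is a protein kinase complex on the lysosome that promotes protein synthesis and cell growth when amino acids and growth factors are plentiful. Sestrins bind the GATOR2 complex and thereby relieve its restraint on GATOR1, which switches off the Rag GTPases that bring mTORC1 to the lysosome; SESN1 and SESN2 release GATOR2 when they bind leucine. DDIT4, also named REDD1, acts through the TSC1-TSC2 complex, which switches off RHEB, the direct activator of mTORC1. SESN1, SESN2 and DDIT4 are known to be transcribed in response to p53, SESN2 and DDIT4 also to the stress factor ATF4, DDIT4 to hypoxia and glucocorticoids, and SESN3 to FOXO factors. Nutlin-3 blocks the binding of MDM2 to p53 and so stabilises p53.

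The estimated counts summed to between 14455477.0 and 19532971.1 per sample. MDM2, a gene that p53 activates and which served as a check of the labels, had 245 ± 33.2 CPM (SD, n = 10) in the vehicle group and 5564 ± 382 CPM (SD, n = 10) in the nutlin group, and no nutlin sample overlapped the vehicle samples. CPM are counts scaled to library size, after normalization of the library sizes by TMM, a trimmed mean of log ratios between samples. Only the cell type marker levels given next are in CPM without TMM, scaled to the total counts of each sample. All 12 adrenergic neuroblastoma markers had a mean of at least 1 CPM in the 20 samples. Their summed level without TMM was 7944 to 8955 CPM in vehicle and 8702 to 10322 CPM in nutlin samples. In the edgeR test with TMM, 4 of the 12 were called higher (beside 32.3% of all genes tested) and 7 lower (beside 26.5%). Their median log2 fold change was -0.18, so the sums without TMM do not give the direction on the TMM scale. The summed level of the 8 fibroblast or Schwann cell markers was 11.9 to 18.6 CPM in vehicle and 36.8 to 48.2 CPM in nutlin samples, most of it COL1A1, and 4 of the 8 had a mean below 1 CPM. The 5 leukocyte markers summed to 1.81 to 3.27 CPM and 3.72 to 6.78 CPM, the 3 endothelial markers to 0.986 to 2.002 CPM and 1.07 to 2.45 CPM, and the 3 epithelial markers to 0.271 to 1.32 CPM and 1.52 to 3.24 CPM, in vehicle and nutlin samples in turn. Their part in the results was not tested.

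SESN1, SESN2 and DDIT4 were higher after nutlin-3, by 8.80, 20.3 and 15.5 times, and SESN3 was lower, at 0.780 times its vehicle level. In the edgeR quasi-likelihood test at 5% FDR, 32.3% of all genes tested were called higher and 26.5% lower, 58.8% in either direction (57.0% with DESeq2), so that a call by itself was common in these data. Groups that did not overlap, with every nutlin sample above every vehicle sample, were found for SESN1, SESN2 and DDIT4 and for 12.2% of the genes tested. A call with a log2 fold change of at least 3 was rarer and was made for the same 3 members and for 2.29% of the genes tested (635 genes). This cut was chosen with results of these data known and lies below the values of all 3, so their passing it tests nothing. The median log2 fold change over all genes tested was 0.19. In bulk samples such as these, a change in the number of cells of a kind and a change in RNA per cell cannot be told apart.

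**Figure D1:**
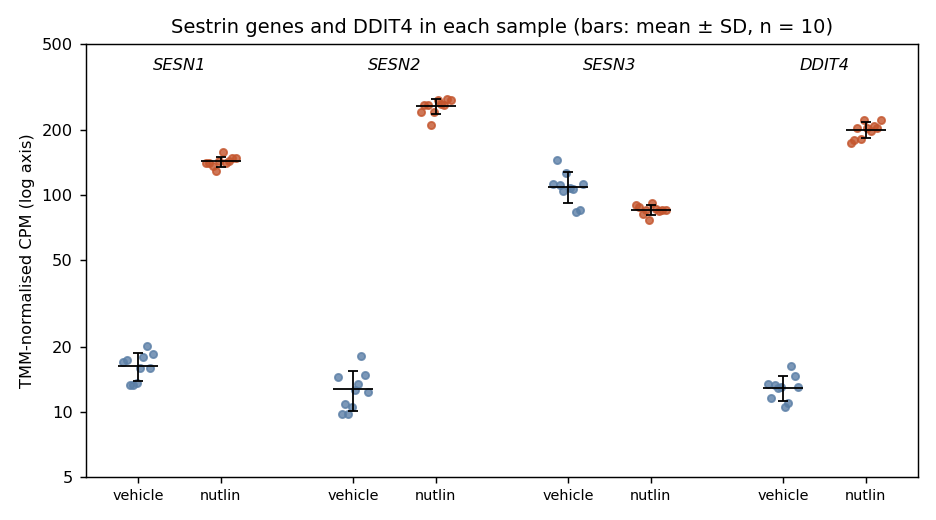
Normalised counts (TMM CPM, log axis) of SESN1, SESN2, SESN3 and DDIT4 in each of the 10 vehicle and 10 nutlin samples, with bars for the mean ± SD. The nutlin samples lie above all vehicle samples for SESN1, SESN2 and DDIT4, while for SESN3 the groups overlap and the nutlin mean is the lower.

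SESN1 (ENSG00000080546.14) lies on the minus strand of chromosome 6 at chr6:108984309-109094846 in GRCh38. In the vehicle samples it ranged from 13.2 to 20.2 CPM with a median of 16.4 CPM, and in the nutlin samples from 130 to 159 CPM with a median of 142 CPM. The lowest nutlin sample was thus far above the highest vehicle sample, and the log2 fold change was 3.14 (SE 0.06, edgeR adjusted p = 5.87e-27), an 8.80-fold rise with a 95% interval of 8.11 to 9.56.

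SESN1 is read from several start sites, which the annotation places in 2 areas. ENST00000436639 begins at the distal start, at position 109094846, ENST00000356644 begins 85291 bases further along the gene, at position 109009555, and ENST00000302071 begins another 567 bases on, at position 109008988. These 3 are the protein-coding transcripts of SESN1 that held at least 1% of its counts, and their first exons differ. The RefSeq windows of 300 bases around the 3 starts (GRCh38.p14, minus strand, 250 bases before the start and 50 after it) are shown because the response differed so much between the starts. The capitals mark the only match to a p53 half-site in these windows.
SESN1 distal start, ENST00000436639, chr6:109094797-109095096: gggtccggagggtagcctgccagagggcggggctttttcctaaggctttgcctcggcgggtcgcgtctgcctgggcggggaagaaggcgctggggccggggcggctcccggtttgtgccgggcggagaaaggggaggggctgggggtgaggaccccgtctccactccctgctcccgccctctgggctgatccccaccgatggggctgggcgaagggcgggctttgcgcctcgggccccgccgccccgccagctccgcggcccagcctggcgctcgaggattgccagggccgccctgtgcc
SESN1 proximal start, ENST00000356644, chr6:109009503-109009802: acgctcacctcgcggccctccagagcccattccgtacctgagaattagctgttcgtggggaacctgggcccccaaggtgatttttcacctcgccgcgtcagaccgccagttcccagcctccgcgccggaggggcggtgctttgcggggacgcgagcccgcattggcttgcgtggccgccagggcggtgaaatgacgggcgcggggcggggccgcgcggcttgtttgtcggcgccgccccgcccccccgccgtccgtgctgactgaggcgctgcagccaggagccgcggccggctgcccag
SESN1 proximal start, ENST00000302071, chr6:109008939-109009238: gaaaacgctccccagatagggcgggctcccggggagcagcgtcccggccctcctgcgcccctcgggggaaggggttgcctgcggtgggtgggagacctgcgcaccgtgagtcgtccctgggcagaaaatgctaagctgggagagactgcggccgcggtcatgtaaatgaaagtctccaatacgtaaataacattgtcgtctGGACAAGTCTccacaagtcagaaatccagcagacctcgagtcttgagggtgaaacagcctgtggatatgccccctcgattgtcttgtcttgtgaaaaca

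The RefSeq start of the middle window is 3 bases from that of ENST00000356644, and the other two starts are the same in RefSeq and GENCODE. The match GGACAAGTCT begins at base -49 of the ENST00000302071 window, at chr6:109009028-109009037, and reads as a half-site on both strands. No full p53 site, that is 2 half-sites with at most 2 mismatches in all, the core C and G of each kept, and at most 13 bases between them, was found in any of the 3 windows. The bases directly after the half-site match keep the core C and G, but have more than 2 mismatches to a second half-site. Of the 35116 RefSeq promoter windows, 6.63% hold a half-site and 2.93% a full site by these rules. A match describes the letters of a window and is not a measurement of binding. The window of ENST00000356644, the transcript with 77.9% of the SESN1 counts under nutlin-3, holds no half-site. Whether a match bears on the difference between the starts was not tested.

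The distal transcript ENST00000436639 moved little. It ranged from 3.67 to 9.07 CPM in the vehicle samples, with a median of 5.92 CPM, and from 5.73 to 10.3 CPM in the nutlin samples, with a median of 7.82 CPM. The groups overlapped, only 2 nutlin samples lay above all vehicle samples, and the log2 fold change was 0.41 (SE 0.14, edgeR adjusted p = 0.0382), or 1.33-fold with a 95% interval of 1.10 to 1.60. Of all 128634 transcripts tested, 12.2% were called higher and 10.4% lower, 22.6% in either direction. The distal transcript was not called in a fit of the 16 samples with shared replicate numbers, with the number as a block (log2 fold change 0.45, adjusted p = 0.0635), in which 4 samples fewer were used.

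Both proximal transcripts rose in every nutlin sample above every vehicle sample. How many of all transcripts part in this way was not counted. ENST00000356644 ranged from 4.48 to 10.9 CPM (median 7.60 CPM) in the vehicle samples and from 95.2 to 120 CPM (median 106 CPM) in the nutlin samples, a log2 fold change of 3.76 (SE 0.12, edgeR adjusted p = 6.19e-17). ENST00000302071 was estimated at 0 in 5 of the 10 vehicle samples and at up to 2.39 CPM in the others, and ranged from 10.1 to 18.2 CPM (median 13.6 CPM) in the nutlin samples, a log2 fold change of 4.15 (SE 0.64, adjusted p = 2.51e-05). The 95% interval of its fold, 7.45 to 42.6, was wide, since its vehicle level rested on a mean of 11.6 estimated counts.

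The make-up of the SESN1 message therefore differed between the groups. The distal start held 29.1% to 47.4% of the SESN1 counts under vehicle (38.4% ± 7.48, SD, n = 10) and 3.76% to 7.54% under nutlin-3 (5.84% ± 1.02, SD, n = 10). The share of ENST00000356644 was 50.5% ± 9.38 (SD, n = 10) under vehicle and 77.9% ± 1.10 (SD, n = 10) under nutlin-3. Neither share overlapped between the groups, and the shifts of -32.5 and 27.3 percentage points both had an adjusted p of 1e-04 (two-sided permutation test over samples, 100000 resamples, adjusted over the 8 start groups tested). With shares computed from TPM, which account for transcript length, both shifts were smaller, at -22.05 and 19.99 points. They were still called (permutation test, adjusted p = 0.00027 and 0.000495). The share of ENST00000302071 in the counts was 5.09% ± 6.07 (SD, n = 10) and 9.77% ± 1.46 (SD, n = 10) with overlapping groups. Its shift of 4.69 points passed narrowly (permutation test, adjusted p = 0.0492), and not with shares computed from TPM (3.54 points, permutation test, adjusted p = 0.114) or when 1 library was left out, be it vehicle replicate 6, 8, 9, 10, 11 or 12 or nutlin replicate 1, 2, 3, 4, 6, 7, 9, 10 or 11 (4.12 to 4.84 points).

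The counts of both proximal starts together were 1.53 ± 0.485 (SD, n = 10) times those of the distal start under vehicle and 15.5 ± 3.56 (SD, n = 10) times under nutlin-3. This ratio ranged from 0.995 to 2.30 and from 11.1 to 24.0, so that the groups were clearly apart. The shift of the ratio was 3.38 on the log2 scale, or 10.4-fold (two-sided permutation test, p = 3e-05). The split of reads between transcripts is an estimate, whose error is not in these tests. It rests on the stretches that a transcript does not share. At the 5′ ends of the GENCODE release 44 sequences, 878, 236 and 194 words of 31 bases belonged to ENST00000436639, ENST00000302071 and ENST00000356644 alone. The annotation of ENST00000436639 has a length of 5664 bases in GENCODE release 44 and of 3509 bases in the files. Its count of words therefore need not hold for the sequences used in the authors' quantification.

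**Figure D2:**
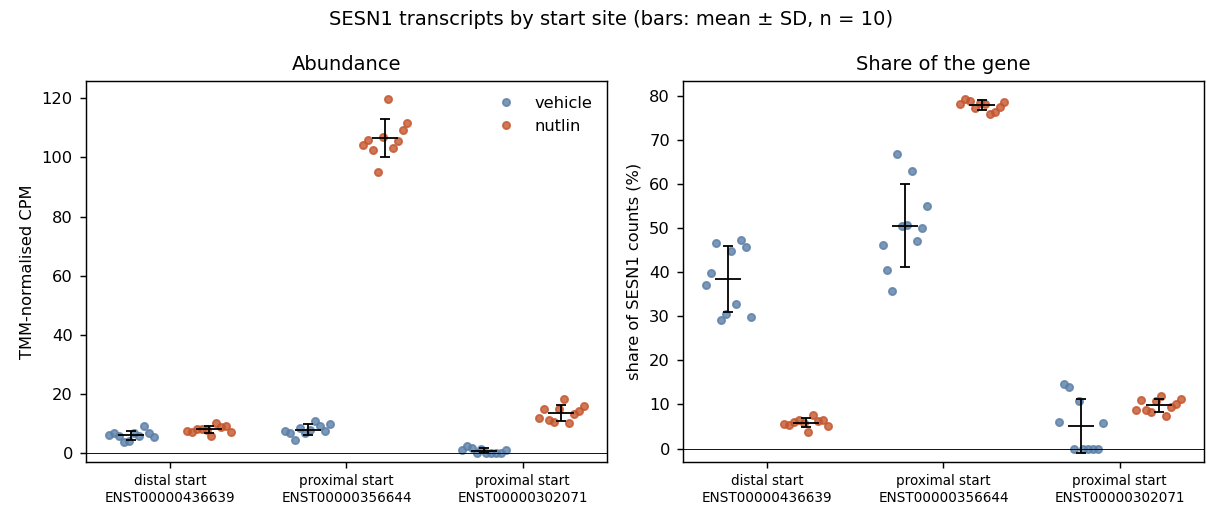
TMM CPM (left) and share of the gene's estimated counts in percent (right) for the SESN1 transcripts of the distal start and of both proximal starts, with 1 point per sample and bars for the mean ± SD of 10 samples. The distal transcript has means of 5.99 CPM in vehicle and 7.94 CPM in nutlin samples with overlapping ranges, while its share goes from 38.4% in vehicle to 5.84% in nutlin samples as ENST00000356644 rises.

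The remaining SESN1 transcripts with at least 1% of the counts were the retained-intron models ENST00000520364, ENST00000368971 and ENST00000523632, which begin within the gene. They were called higher as well, with log2 fold changes of 3.47 (SE 0.39), 3.02 (SE 0.57) and 3.40 (SE 0.25). Their shares of 1.36%, 2.34% and 1.90% under vehicle and 1.70%, 2.31% and 2.39% under nutlin-3 were not called different (permutation test, adjusted p = 0.450, 0.973 and 0.144). The share of ENST00000520364 was called without vehicle replicate 3 (0.638 points) and that of ENST00000523632 without vehicle replicate 4 (0.631 points). An antisense lncRNA inside SESN1, ENSG00000271730, went from a mean of 0.398 to 18.1 estimated counts (log2 fold change 5.40, SE 0.44, edgeR adjusted p = 5.53e-12). The libraries were made with a stranded kit, but whether the quantification used the strand is not given in the sources used here, so its reads cannot be told apart from those of SESN1. CEP57L1, whose annotated start lies 264 bases from the distal SESN1 start on the opposite strand, was lower (log2 fold change -0.93, SE 0.07, edgeR adjusted p = 1.54e-12), and ARMC2 on the other side was not called (0.19, SE 0.08, adjusted p = 0.0546).

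SESN2 (ENSG00000130766.5; chr1:28259518-28282491, plus strand) has a single annotated transcript, and nutlin-3 moved it the most of the 4 members. It ranged from 9.79 to 18.2 CPM with a median of 12.4 CPM in the vehicle samples, and from 211 to 278 CPM with a median of 262 CPM in the nutlin samples. The groups were far apart, and the log2 fold change was 4.34 (SE 0.08, edgeR adjusted p = 2.96e-27), a 20.3-fold rise with a 95% interval of 18.2 to 22.7. Among the genes called higher, SESN2 ranked 196 by fold change, DDIT4 290 and SESN1 558. Of the neighbours of SESN2, MED18 moved little, with a log2 fold change of 0.22 (SE 0.06, edgeR adjusted p = 0.0025). The lncRNA ENSG00000271398 was higher by 3.66 (SE 0.47, edgeR adjusted p = 6.29e-08), from a mean of 0.300 to 5.40 estimated counts. With so few counts the size of that change is poorly set.

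DDIT4 (ENSG00000168209.6; chr10:72273919-72276036, plus strand) ranged from 10.5 to 16.2 CPM with a median of 12.97 CPM in the vehicle samples, and from 175 to 224 CPM with a median of 204 CPM in the nutlin samples. No sample of one group came near the other, and the log2 fold change was 3.96 (SE 0.06, edgeR adjusted p = 1.02e-28), or 15.5-fold with a 95% interval of 14.3 to 16.9. Its protein-coding transcript ENST00000307365 carried 91.0% of the gene's counts without and 95.9% with nutlin-3 and had a log2 fold change of 4.03 (SE 0.08, edgeR adjusted p = 7.72e-20). In GENCODE release 44 it has only 10 words of 31 bases of its own. The models ENST00000491934, ENST00000471240 and ENST00000473155 have 1371, 1966 and 1830 bases there, but 847, 521 and 753 in the files. The count of words thus need not hold for the authors' quantification, and the split between DDIT4 transcripts remains uncertain. The retained-intron model ENST00000473155 had a log2 fold change of 3.91 (SE 0.41). The model ENST00000491934, annotated as subject to nonsense-mediated decay, had one of 1.94 (SE 0.65, edgeR adjusted p = 0.0334), which was not called in the fit of 16 samples with the replicate block (2.65, adjusted p = 0.152). The neighbours ANAPC16 and DNAJB12 were not called, with log2 fold changes of -0.10 (SE 0.05) and -0.06 (SE 0.04).

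The RefSeq promoter window of DDIT4 (chr10:72273674-72273973, plus strand) holds the hypoxia core ACGTG at base -125. It is shown with its flanks, the core in capitals, because DDIT4 is a known hypoxia gene.
DDIT4 promoter, chr10:72273799-72273803 and flanks: tgcttACGTGcgccc
The core is common, with 21.4% of the 35116 windows holding it on either strand. The element TGATGCAA, bound by ATF4 and held by 0.866% of windows, and the FOXO motif GTAAACA, held by 3.42%, were searched on both strands and were not found in the 6 windows of the 4 members. Nor was a full p53 site. The window of SESN3 surrounds a RefSeq start at position 95232475, which is not the start of its main transcript at 95231202.

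SESN3 (ENSG00000149212.12; chr11:95165513-95232541, minus strand) went the other way. It ranged from 84.1 to 146 CPM with a median of 109.8 CPM in the vehicle samples, and from 76.4 to 92.4 CPM with a median of 85.7 CPM in the nutlin samples. Of the vehicle samples, 8 lay above all nutlin samples, while vehicle replicates 10 and 11, at 84.1 and 85.6 CPM, fell within the nutlin range, so that the groups overlapped. Of the genes tested, 16.6% had every nutlin sample below every vehicle sample. The log2 fold change was -0.36 (SE 0.07, edgeR adjusted p = 2.92e-05), or 0.780 times with a 95% interval of 0.712 to 0.854. The call was kept when any single library was left out (log2 fold change -0.38 to -0.30).

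The main SESN3 transcript ENST00000536441 carried 99.8% of the gene's counts without and 96.7% with nutlin-3, and was lower with a log2 fold change of -0.41 (SE 0.08, edgeR adjusted p = 0.000362). Minor transcripts were higher. ENST00000416495 was estimated at 0 in 9 of 10 vehicle samples and went from a mean of 0.239 to 23.9 estimated counts (edgeR adjusted p = 1.23e-06), and ENST00000278499 from 2.16 to 18.7 (log2 fold change 3.10, SE 0.66, adjusted p = 0.00102). With so few vehicle counts the size of these changes is poorly set, and ENST00000416495 still held 1.78% of the nutlin counts. Transcripts that begin at the more upstream starts rose from 0.181% ± 0.176 (SD, n = 10) to 1.504% ± 0.976 (SD, n = 10) of the gene, with overlapping groups (permutation test, adjusted p = 1e-04). Most of this share was ENST00000278499. In GENCODE release 44 that transcript has 70 words of 31 bases of its own, 14 of them at the 5′ end. The error of assigning reads to it is not in the test. The lncRNA LNCRNA-IUR overlaps SESN3 on the opposite strand and was not called (log2 fold change 0.25, SE 0.14, edgeR adjusted p = 0.132), and the next gene on one side, ENDOD1, was higher (0.64, SE 0.08, adjusted p = 6.18e-08).

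Levels of different genes were compared in TPM, which unlike CPM account for transcript length. In the vehicle samples the order was SESN3 at 12.4 ± 2.36 TPM, DDIT4 at 9.56 ± 1.07 TPM, SESN1 at 7.77 ± 1.75 TPM and SESN2 at 4.01 ± 0.795 TPM (SD, n = 10). SESN3 and DDIT4, and DDIT4 and SESN1, were neighbours whose ranges overlapped, in this order in 8 of 10 samples each, whereas SESN1 was above SESN2 in 10 of 10 samples with no overlap. In the nutlin samples SESN3 was last and SESN2 was above SESN1, with DDIT4 at 139 ± 7.60 TPM, SESN2 at 80.3 ± 7.65 TPM, SESN1 at 71.0 ± 5.13 TPM and SESN3 at 11.3 ± 1.23 TPM (SD, n = 10). There SESN2 and SESN1 overlapped, with SESN2 the higher in 9 of 10 samples, and the other neighbours did not. On this scale the ranges of SESN3 overlapped widely, with 8.71 to 16.7 TPM in vehicle and 8.998 to 13.3 TPM in nutlin samples.

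The summed TPM of the 3 sestrins ranged from 19.4 to 28.8 in the vehicle samples (median 24.9) and from 140 to 178 in the nutlin samples (median 167), a 6.72-fold difference of the means. SESN3 made up 51.3% ± 6.79 (SD, n = 10) of the sum under vehicle and 6.95% ± 0.701 (SD, n = 10) under nutlin-3. The share of SESN2 was 16.7% ± 3.56 and 49.4% ± 2.30, and that of SESN1 31.9% ± 4.24 and 43.7% ± 1.83 (SD, n = 10 each). The dominant sestrin message was thus SESN3 in the vehicle samples, and SESN2 and SESN1 together in the nutlin samples.

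**Figure D3:**
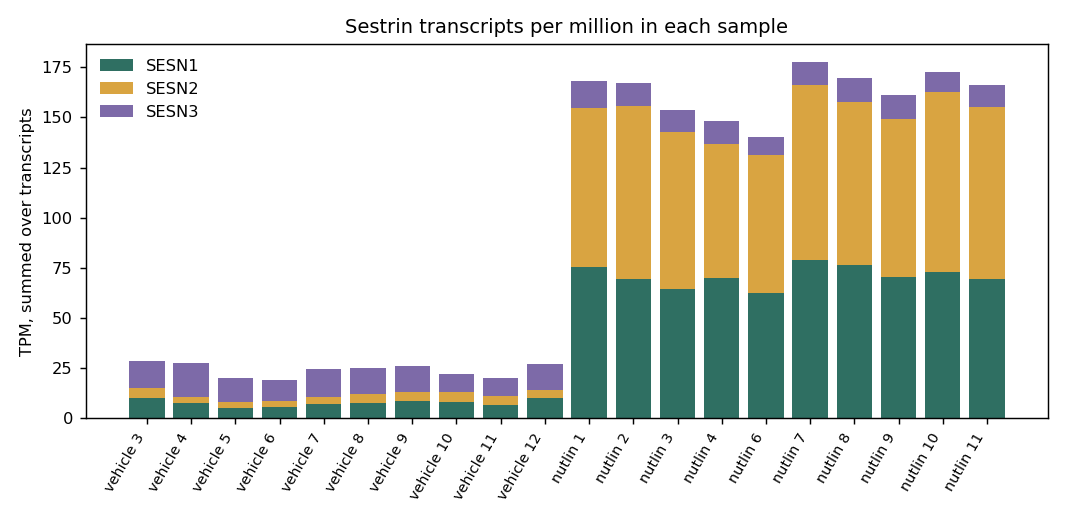
Stacked TPM of SESN1, SESN2 and SESN3 (vertical axis, from 0) in each vehicle and nutlin sample, named by its replicate number. The stacks reach 19.4 to 28.8 TPM in vehicle and 140 to 178 TPM in nutlin samples, with the SESN3 layer of similar height throughout.

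The members also differed from each other in the size of the response. For each of the 6 pairs, the log2 ratio of their CPM was compared between the groups with a two-sided permutation test (100000 resamples, adjusted over the 6 pairs). The SESN2 response exceeded that of SESN1 by 1.21 on the log2 scale, since the ratio of SESN1 to SESN2 shifted by -1.21 (permutation test, adjusted p = 3.6e-05). The ratio of SESN1 to DDIT4 shifted by -0.81 (permutation test, adjusted p = 3.6e-05) and that of SESN2 to DDIT4 by 0.40 (permutation test, adjusted p = 0.00031). The order of the responses was therefore SESN2, DDIT4, SESN1. The step from DDIT4 to SESN2 was larger than the SD but not than the range over samples, since the log2 ratio of SESN2 to DDIT4 was -0.04 ± 0.25 in vehicle and 0.36 ± 0.12 in nutlin samples (SD, n = 10) with overlapping ranges. Against SESN3 the shifts were 3.49 for SESN1, 4.71 for SESN2 and, as the ratio of SESN3 to DDIT4, -4.30 (permutation test, adjusted p = 3.6e-05 for each).

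Samples within a group differed by 14.6% (SESN1), 20.9% (SESN2), 16.4% (SESN3) and 13.01% (DDIT4) in the vehicle group, as the coefficient of variation of CPM, and by 5.42%, 8.04%, 5.22% and 8.45% in the nutlin group. All 4 members thus varied less, relative to their mean, in the nutlin samples, a difference that was not tested. It was not particular to them, since MDM2 had 13.6% in the vehicle and 6.87% in the nutlin group. Whether members rose and fell together among samples of one group was examined with 12 correlations of log2 CPM over 10 samples each, and none passed 5% after adjustment. The strongest in the vehicle group was that of SESN2 with SESN3 (Pearson r = -0.77, permutation p = 0.0101, adjusted p = 0.0740, Spearman rho = -0.53, permutation p = 0.123), with r = -0.83 without the 2 samples farthest from the median of SESN2. In the nutlin group it was that of SESN1 with SESN2 (r = 0.77, permutation p = 0.0123, adjusted p = 0.0740, rho = 0.75, permutation p = 0.0174), with r = 0.50 without the 2 samples farthest from the median of SESN1.

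The genes most like each member were those whose smaller Pearson r within the groups was highest, among the 14140 genes that averaged 1 CPM or more in each group, over 10 samples per group. The points share library and depth, so these values describe the samples only. For SESN2 they were CDKN1A (r = 0.95 in vehicle and 0.97 in nutlin samples), GBX2 (0.93 and 0.92) and SGK1 (0.92 and 0.92). CDKN1A, which encodes the cell cycle inhibitor p21, was itself higher after nutlin-3 (log2 fold change 5.68, SE 0.14), as was the kinase gene SGK1 (2.03, SE 0.14), whereas GBX2 was lower (-0.43, SE 0.09). For SESN1 they were RAD51AP1 (0.86 and 0.86), ELAVL4 (0.92 and 0.85) and PNPLA8 (0.86 and 0.84), for DDIT4 RNF7 (0.89 and 0.94), BLOC1S1 (0.93 and 0.88) and PSMC5 (0.87 and 0.93), and for SESN3 BLOC1S6 (0.82 and 0.83), ANO6 (0.90 and 0.80) and PARD6G (0.86 and 0.79). A gene that was like a member within the groups could still move the other way. RAD51AP1, close to SESN1 in both groups, was lower (log2 fold change -2.27, SE 0.08).

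None of the other 76 genes of mTORC1 control moved as far as SESN1, SESN2 or DDIT4. Of these genes, in 9 lists, 25 were called higher (beside 32.3% of all genes tested), 33 lower (beside 26.5%) and 18 not called, with a median log2 fold change of -0.06 beside 0.19 over all genes tested. In the GATOR2 and leucine sensing list, 2 of 8 genes were higher and 5 lower. The subunits WDR59 (log2 fold change 0.45, SE 0.04) and WDR24 (0.28, SE 0.06) were higher, and MIOS (-0.48, SE 0.04), SEH1L (-0.56, SE 0.04) and SEC13 (-0.74, SE 0.04) lower, so the subunits of the partner complex of the sestrins moved in both directions. Of the arginine sensors, CASTOR2 was lower (-0.76, SE 0.08) and CASTOR1, with means of 0.255 CPM (vehicle) and 0.496 CPM (nutlin), was not called (0.94, SE 0.43, edgeR adjusted p = 0.0641). DESeq2 called CASTOR1 higher too, so that 3 of the 8 genes were higher.

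In GATOR1 and its KICSTOR anchor, 3 of 7 genes were higher, with KICS2 (0.65, SE 0.07) in the lead, and 3 lower, among them the GATOR1 subunit DEPDC5 (-0.34, SE 0.05). Beside the counts of this list and of the lists of mTORC1 control that follow, 32.3% of all genes tested were called higher and 26.5% lower. Of the 13 genes of the Rag GTPases, Ragulator and FLCN, which hold mTORC1 at the lysosome, 7 were lower and none was called higher by edgeR. RRAGD was lowest (-0.95, SE 0.05), with the Ragulator subunits LAMTOR5 (-0.82, SE 0.06) and LAMTOR3 (-0.43, SE 0.05). At an unadjusted p under 0.05, 1 of the 13 was higher in the edgeR test. With DESeq2, 1 was called higher, and with a stricter filter on low counts 3 were.

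In the TSC list, which DDIT4 acts through, TSC1 was slightly higher (0.17, SE 0.04) and TSC2 was not called (0.06, SE 0.03, edgeR adjusted p = 0.157). With DESeq2, and with a stricter filter on low counts, 2 genes of the list were called higher in place of 1, TSC2 being the second. RHEB, the activator that this complex switches off, went from 179 ± 13.5 to 83.2 ± 4.33 CPM (SD, n = 10; log2 fold change -1.11, SE 0.04, edgeR adjusted p = 3.41e-20), and its relative RHEBL1 was lower too (-1.03, SE 0.09), as was the third TSC subunit TBC1D7 (-0.60, SE 0.05). The kinase MTOR itself (-0.07, SE 0.03, edgeR adjusted p = 0.0545) and its mTORC1 partner RPTOR (0.00, SE 0.03) were not called, whereas the inhibitor DEPTOR was higher (0.65, SE 0.08) and the mTORC2 subunit MAPKAP1 lower (-0.48, SE 0.03). In the AMPK list, 5 of 10 genes were higher and 3 lower (4 and 2 with DESeq2, with the stricter filter or with the replicate block), with the regulatory subunits PRKAB1 (1.03, SE 0.04) and PRKAB2 (1.21, SE 0.04) the largest changes among genes with at least 1 CPM.

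Among 11 genes of PI3K-AKT input, 4 were higher, with the PI3K inhibitor PIK3IP1 in the lead (1.52, SE 0.09), and 5 lower, including AKT1 (-0.38, SE 0.04) and AKT2 (-0.24, SE 0.03). The 11 genes of mTORC1 outputs were split, with 6 higher (beside 32.3% of all genes tested) and 5 lower (beside 26.5%). The largest rises were those of TFEB, a lysosome factor that mTORC1 restrains (1.89, SE 0.14), and the adaptor GRB10 (1.29, SE 0.05), and the largest falls those of EIF4EBP2 (-0.62, SE 0.03) and EIF4EBP1 (-0.41, SE 0.05), which encode repressors of translation. The close relative of DDIT4, DDIT4L, was barely detected (mean 0.0118 and 0.00601 CPM in vehicle and nutlin samples) and was not called, and TXNIP, another gene linked to lowered mTORC1 activity, was lower (-1.35, SE 0.06).

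**Figure D4:**
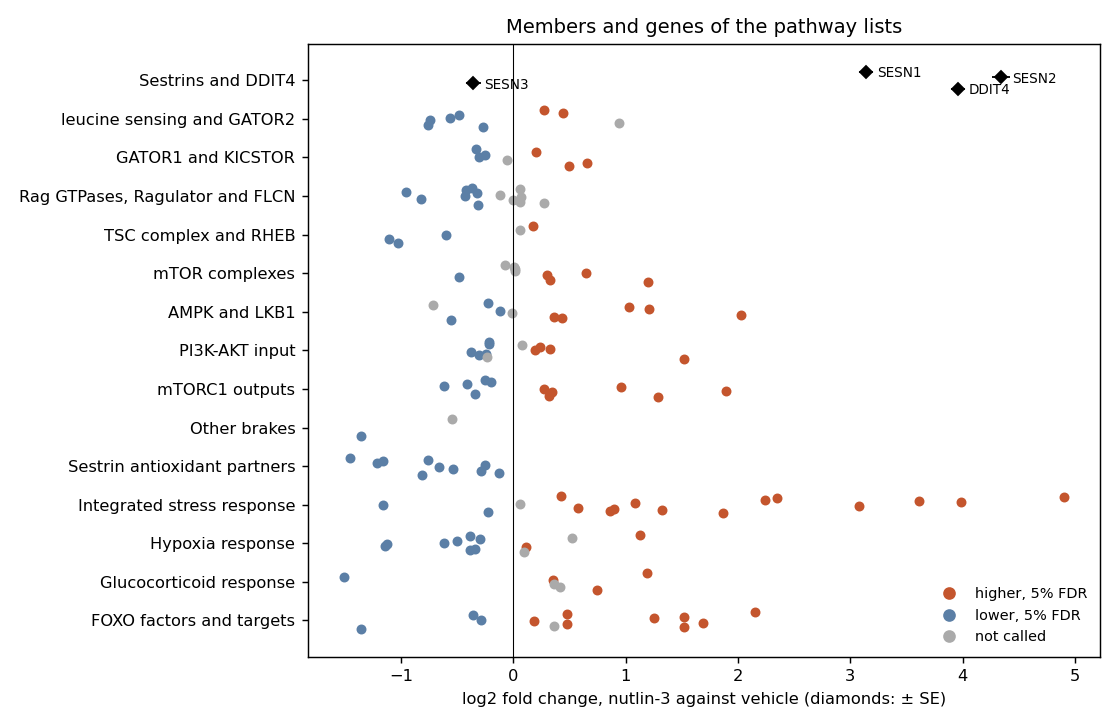
Log2 fold change, nutlin-3 against vehicle, of SESN1, SESN2, SESN3 and DDIT4 (diamonds with bars for the SE) and of each tested gene in the 14 lists (points coloured by the call at 5% FDR; a gene may stand in more than 1 list). The members SESN1, SESN2 and DDIT4, between 3.14 and 4.34, lie to the right of every gene of the mTORC1 lists, and SESN3 lies at -0.36.

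Sestrins are also known for a second role, in the defence against peroxides, where they work with peroxiredoxins and sulfiredoxin. The list of sestrin antioxidant partners held the peroxiredoxin genes PRDX1 to PRDX6, the sulfiredoxin gene SRXN1, and also KEAP1, SQSTM1 and RBX1, which are neither. All 10 genes of this list were called lower, and 9 of the 10 with DESeq2, with a stricter filter on low counts or with the replicate block. The median log2 fold change was -0.71. PRDX1 went from 800 ± 92.0 to 291 ± 19.5 CPM (SD, n = 10; -1.46, SE 0.05), PRDX4 (-1.22, SE 0.06) and PRDX3 (-1.16, SE 0.04) followed, and the groups did not overlap for these 3. In this list the groups overlapped for PRDX5 and SQSTM1 only. In all, 26.5% of the genes tested were called lower, and 16.6% had every nutlin sample below every vehicle sample.

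The pathways known to drive the members were described by genes other than the members. The integrated stress response acts on SESN2 and DDIT4 through ATF4. Of 16 of its genes, 13 were higher (beside 32.3% of all genes tested) and 2 lower (beside 26.5%). Their median log2 fold change was 1.21, beside 0.19 over all genes tested. ATF3 (4.90, SE 0.12) and CHAC1 (3.99, SE 0.31) rose the most. ATF4 itself, which the naming rule did not select and whose value was known, was higher by 0.42 (SE 0.05) on the log2 scale. The serine synthesis gene PHGDH (-1.16, SE 0.05) and VLDLR (-0.23, SE 0.04) were the 2 that were lower. Some of these genes, ATF3 among them, are also known to respond to p53.

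The hypoxia list, linked to DDIT4, went mostly the other way from DDIT4. Of 12 genes, 8 were lower, including the glucose transporter SLC2A1 (-1.14, SE 0.04) and PDK1 (-1.12, SE 0.07), and 2 were higher, VEGFA (1.12, SE 0.06) and KDM3A (0.12, SE 0.04). In the fit of 16 samples with the replicate block, 1 of these was called higher, VEGFA, and KDM3A was not. In the glucocorticoid list, 3 of 6 were higher, among them TSC22D3 (1.19, SE 0.06) and DUSP1 (0.75, SE 0.05), and FKBP5 was lower (-1.51, SE 0.04). With a stricter filter on low counts 5 of the 6 were called higher, and with DESeq2 4. Of 12 FOXO factors and targets, linked to SESN3, 8 were higher, with FOXO1 (2.15, SE 0.24) and BCL6 (1.69, SE 0.14) the largest, and 3 were lower, with TXNIP and FOXO4 (-0.36, SE 0.09) among them. Beside the counts of these lists, 32.3% of all genes tested were called higher and 26.5% lower.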

How the data were processed

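The members, gene lists and tests were chosen with earlier results of these data known. For each sample, the authors ran kallisto (0.42.4 in the submitters' processing notes, with the build hg38) and deposited 3 values for each of 198968 transcripts: estimated counts, with no normalization; TPM, the estimated counts that the authors' kallisto scaled by effective length and depth; and effective lengths, in bases. Transcripts were matched to GENCODE release 44 by Ensembl identifier (191106, or 96.05%; the rest were left out). The authors' estimated counts were summed per gene and rounded to whole numbers, and a protein-coding or lncRNA gene was tested if its total reached 1 count in vehicle and in nutlin samples alike.

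Genes and, separately, transcripts were tested with edgeR 4.0.16 in R 4.3.3 (quasi-likelihood F-test, TMM, condition as the only term, all 20 samples, Benjamini-Hochberg over all features, 5% FDR). Shares of a start group (annotated starts within 500 bases of each other, holding at least 1% of the gene), ratios and correlations were tested by two-sided permutation over samples with scipy 1.17.1 and numpy 2.4.6 (100000 resamples). Here the smallest p such a test can give is 1e-05. The scripts were tested on simulated data. Depth of 14455477.0 to 19532971.1 estimated counts left the low transcripts with few counts, and the tests do not hold the error of assigning reads to transcripts.

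Named beside the members were MDM2, the members' transcripts with at least 1% of the gene's counts, up to 3 genes per list and direction with the largest changes (at least 1 CPM), genes chosen by role, and 3 like genes per member. Some genes that this rule selected are not reported here. Alternatives were DESeq2 1.42.0, its size factors in edgeR, limma 3.58.1 voom, other filters on low counts, an effective length offset, all gene types, unmatched transcripts in the library sizes, 1% FDR, TPM shares, summed TPM, starts joined within 100 bases, the replicate number as a block, and leaving out each library. Promoter windows came from RefSeq (GRCh38.p14), with 6 windows for the 4 members. No protein sequence was used here.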

Additional observations from a re-analysis of the deposited data

Results flagged for a closer look

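In 32 groups of 10 samples, made of the members and their transcripts in each condition, 3 held a sample far from the others. Chance flags about 1 in 20 groups of normally distributed values, a rate that need not hold for transcripts with estimates at or near 0. The SESN1 retained-intron model ENST00000520364 was at 0.642 CPM in vehicle replicate 3, with the nearest vehicle sample at 0.293 CPM and a group median of 0.163 CPM. The minor SESN3 transcript ENST00000416495 was at 0.117 CPM in vehicle replicate 12 and at 0 in the other vehicle samples. The DDIT4 transcript ENST00000491934 was at 2.90 CPM in vehicle replicate 11, with the nearest at 1.54 CPM and a median of 0.485 CPM. These 3 are transcripts with few estimated counts, and no gene-level value of SESN1, SESN2, SESN3 or DDIT4 stood apart in this way.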

How the results depend on the processing

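The log2 fold changes of the 4 genes kept their direction and their call in the 10 alternatives and in the 20 fits that each left out 1 library. They were 3.13 to 3.29 for SESN1, 4.33 to 4.42 for SESN2, -0.37 to -0.28 for SESN3 and 3.92 to 4.04 for DDIT4 over the alternatives, and 3.11 to 3.19, 4.31 to 4.43, -0.38 to -0.30 and 3.93 to 4.01 with 1 library left out. The labels of the groups share 8 replicate numbers. Deviations of same-numbered samples correlated by -0.071 to 0.0757, none above 0.1, and no vehicle sample correlated best with its own number, so the numbers were not taken as a pairing. With the number as a block over these 16 samples the log2 fold changes were 3.16, 4.35, -0.34 and 4.02 for SESN1, SESN2, SESN3 and DDIT4, and 7555 genes were higher and 6760 lower, against 8196 and 6917 for the same samples without the block. In the transcript fit with the block over 16 samples, ENST00000436639 (0.45) and ENST00000491934 (2.65) were not called. That fit changed both the block and the number of samples, and the 16 samples were not fitted without the block for transcripts. The share shift of ENST00000302071 was not called with TPM shares (3.54 points). The shifts of the distal start and of ENST00000356644 were called with TPM shares but were smaller (-22.05 and 19.99 points). With 1 library left out, the shift of the distal start was -33.5 to -31.5 points, that of ENST00000356644 25.7 to 29.2, that of ENST00000302071 4.12 to 5.74 points, that of ENST00000520364 0.191 to 0.638, that of ENST00000523632 0.385 to 0.631 and that of ENST00000368971, near 0 in the full data (-0.0267), -0.318 to 0.305 points, and above 0 without vehicle replicate 3, 7, 9 or 12 (0.305, 0.295, 0.0892 and 0.208) or nutlin replicate 2, 3, 6, 7, 10 or 11 (0.0655, 0.000998, 0.0227, 0.0869, 0.0882 and 0.127). The cause was not tested. Depth limits the minor transcripts, several of which had only a few estimated counts in the vehicle samples.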
